A study of Mus musculus with 11 samples.

Results

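The Hox cluster genes, which encode the transcription factors that assign position along the body axis, were read in RNA sequencing libraries of primary lung fibroblasts, connective tissue cells grown from mouse lung. Members were all genes whose mouse symbol is Hox followed by a cluster letter from a to d and a number. The rule used symbols alone, and it was set with earlier results of these data known. There were 39 such genes among the 56980 Ensembl genes (58223 entries with repeat subfamilies) of each count table. The A cluster on chromosome 6 held 11 of them, the B cluster on chromosome 11 held 10, the C cluster on chromosome 15 held 9 and the D cluster on chromosome 2 held 9. The study compared fibroblasts lacking cGAS, the cytosolic DNA sensor (cGAS KO, 3 female and 3 male samples), with wild-type fibroblasts (WT, 2 female and 3 male samples). The labels number the samples within each sex without saying that each came from a separate mouse or culture, so p-values measure the spread between these samples, which may be technical. Cells of both genotypes and sexes were cultured at 37 °C with 5% CO2 and 5% O2 in DMEM/F12 medium containing 15% serum, and total RNA was depleted of ribosomal RNA. The labels give no strain, no animal age and no description of the Cgas allele. Their extraction text speaks of pulverized tissue although the samples are described as cultured cells, and this was not settled.

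Hox genes sit in 4 clusters, and their order along each cluster follows the order of their activity along the body. Low-numbered genes act towards the head, high-numbered genes towards the tail and the ends of the limbs, and genes of the same number in different clusters (a paralog group) are close relatives. Fibroblasts keep much of the Hox pattern of the site they came from, so that the set of active Hox genes is read as a record of position. In the mouse, Hoxa5 is needed for normal lung and airway development, and lung mesenchyme is known for genes of the low and middle paralog groups of clusters A and B.

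Total counts were 27261958 to 48039328 per library, of which the 39 Hox genes took 3521 to 6164. Levels are given as counts per 1000000 (CPM) on library sizes scaled by the trimmed mean of M values (TMM). Cgas, read first as the check of the labels, was at 1.63 to 2.27 CPM in the 6 KO libraries and 5.89 to 9.85 CPM in the 5 WT libraries (log2 fold change −1.98, SE 0.15, edgeR adjusted p = 0.000954). The 10 fibroblast markers summed to 37823 to 52165 CPM in KO and 40631 to 54289 CPM in WT, and each was above 0 in every library. The 16 leukocyte and macrophage markers summed to 8526 to 14540 CPM in KO and 6009 to 8852 CPM in WT. Among these, 14 were above 0 in every library. The 10 epithelial markers summed to 8.74 to 29.4 CPM in KO and 17.3 to 36.8 CPM in WT. KO male 3, WT female 2 and WT male 3 stood apart in their Hox genes, as described with the genes concerned. WT female 2 also stood apart over all entries past a filter on low counts. Its median Spearman correlation with the other libraries was 0.963, against 0.979 to 0.986 for the others. Repeats took 10.2% of its counts, against 5.31% to 8.10% in the others. It is 1 of the 2 WT females, so the contrast within females and the difference between the sexes rest partly on it. In bulk RNA, a different share of Hox-expressing cells and a different amount of Hox RNA per cell cannot be told apart.

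Hox RNA in these fibroblasts came almost wholly from clusters A and B. Cluster A made up 43.1% ± 3.23 of the Hox CPM in KO (SD, n = 6) and 44.6% ± 3.05 in WT (SD, n = 5), and cluster B made up 51.9% ± 2.84 in KO and 51.7% ± 2.66 in WT. Cluster C contributed 4.03% ± 2.36 in KO and 3.03% ± 1.48 in WT, and cluster D contributed 0.990% ± 1.02 in KO and 0.660% ± 0.593 in WT. The 39 genes together reached 114 ± 21.5 CPM in KO and 129 ± 13.7 CPM in WT. A filter on low counts left 21 genes for the test over both sexes. These were 7 of 11 in cluster A, 8 of 10 in B, 5 of 9 in C and 1 of 9 in D. By paralog group they were 20 of the 27 genes of groups 1 to 9 and 1 of the 12 genes of groups 10 to 13. Of the other 18 genes, Hoxb1, Hoxc12 and Hoxd1 had no count in any library, which allows up to 0.0609 to 0.110 CPM depending on the library.

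**Figure D1:**
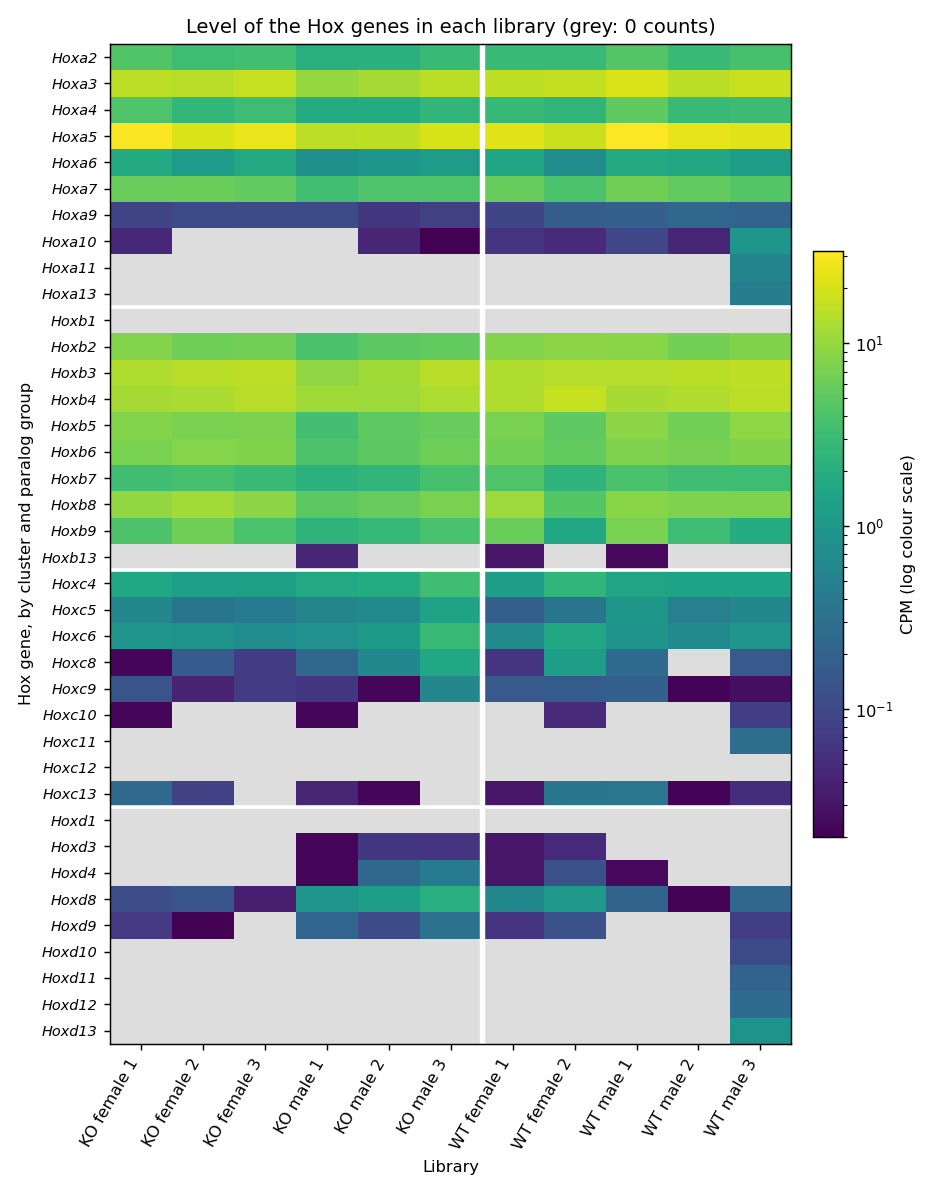
Level of 38 of the Hox genes (rows, by cluster and paralog group) in each of 11 libraries (columns, KO left of WT) as CPM on a log colour scale, with grey for 0 counts. Clusters A and B are filled from group 2 to group 7 or 9 in every library, cluster D is nearly empty, and the genes of groups 10 to 13 have their highest levels in WT male 3, apart from Hoxb13 and Hoxc13.

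Hoxa5, the lung and airway gene, was the most abundant member per length of transcript. Over all 11 libraries it averaged 12 CPM per kilobase of annotated exon. Next came Hoxb4 with 5.12 CPM per kilobase, a regulator known from blood stem cells, and Hoxb6 with 3.41. The second of cluster A was Hoxa3, known from the pharyngeal arches, at 2.54 CPM per kilobase. In cluster C the highest were Hoxc4 at 0.683 and Hoxc6 at 0.463 CPM per kilobase, and in cluster D Hoxd8 at 0.223 and Hoxd9 at 0.0431. All 15 A and B genes past the filter lay above every C and D gene on this scale. The highest paralog number past the filter was 7 in cluster A (Hoxa7), 9 in cluster B (Hoxb9), 13 in cluster C (Hoxc13, at 0.0450 CPM per kilobase) and 8 in cluster D (Hoxd8). Hoxa9 lay past that edge, at 0.0662 to 0.111 CPM in KO and 0.0936 to 0.238 CPM in WT.

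Upstream sequences of 3 genes are shown: the most abundant member, the member called by edgeR in males, and a member read in 1 library only. Each is the 250 bases before the annotated start from RefSeq on GRCm38.p6, 5′ to 3′ on the gene's strand, with the CCAAT box or its reverse complement ATTGG in capitals.
Hoxa5, chr6:52204588-52204837, minus strand: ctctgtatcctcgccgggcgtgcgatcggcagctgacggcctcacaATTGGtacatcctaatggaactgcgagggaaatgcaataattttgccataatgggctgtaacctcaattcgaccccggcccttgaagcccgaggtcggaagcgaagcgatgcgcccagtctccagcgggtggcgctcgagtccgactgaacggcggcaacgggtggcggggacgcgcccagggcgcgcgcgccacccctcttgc
Hoxd8, chr2:74704365-74704614, plus strand: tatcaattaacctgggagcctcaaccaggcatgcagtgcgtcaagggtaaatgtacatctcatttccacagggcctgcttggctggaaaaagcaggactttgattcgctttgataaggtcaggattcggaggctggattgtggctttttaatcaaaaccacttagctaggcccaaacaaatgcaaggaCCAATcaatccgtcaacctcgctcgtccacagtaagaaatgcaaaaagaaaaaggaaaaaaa
Hoxa13, chr6:52260881-52261130, minus strand: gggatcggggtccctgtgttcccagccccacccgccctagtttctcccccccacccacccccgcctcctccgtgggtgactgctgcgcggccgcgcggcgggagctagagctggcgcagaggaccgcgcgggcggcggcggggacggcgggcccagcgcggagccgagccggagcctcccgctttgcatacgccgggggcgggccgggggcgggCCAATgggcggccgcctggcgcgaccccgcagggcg
These windows held 28, 6 and 35 CG dinucleotides in the order given. The median was 12.5 over the 24 Hox windows available (22 genes) and 6 over all 32851 promoters of the table. For 20 of the 24, the bases after the start were found in an annotated transcript of the gene. Searched on both strands, CCAAT stood in 14 of the 24 Hox windows (58.3%) and in 33.8% of all windows. TATAAA stood in 4 Hox windows (16.7%) and 12.4% of all, and TGATNNAT, letters bound by Hox proteins with their Pbx partners, in 4 (16.7%) and 7.68% of all. A match is a description of these letters only.

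Close relatives share coding sequence, which bears on how reads were assigned. Among the 741 pairs of the 39 genes, the longest identical coding stretch had a median of 14 bases, and 4 pairs shared more than 40. The stretch that Hoxd8, the gene called in males, shares with Hoxb8 of its paralog group is shown, with no base in capitals.
Hoxb8 and Hoxd8, 32 bases: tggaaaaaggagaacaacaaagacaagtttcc
The counting rule for reads with several matches was not given in the sources used here. Exons of 16 of the 39 genes also overlap another annotated gene, on the same strand for 9 and on the opposite strand for 10. Hoxd3 and Hoxd4 overlap each other, Hoxa3 overlaps Hoxaas2 and Hoxaas3, and Hoxb2 and Hoxb3 overlap the antisense transcript Hoxb3os, so values of these genes are uncertain.

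Over both sexes, no Hox gene passed the test between KO and WT. All 15 A and B genes had a negative log2 fold change, with a median of −0.20, and 5 of the 6 C and D genes had a positive one. By edgeR's quasi-likelihood test with Benjamini-Hochberg adjustment over all 22298 entries tested, 0 of 21 Hox genes were called, where 0.00448% of all entries were called (Cgas alone). At an unadjusted p under 0.05 there were 2 of 21, against 17.2% of all entries, and both were lower in KO, as were 6.64% of all entries. DESeq2 called 2 genes as lower in KO, among them Hoxb2, where it called 1.36% of all entries with a count. No Hox gene had every KO library below every WT library, against 0.354% of all entries, or every KO library above, against 1.01%. The median log2 fold change over all entries was −0.01, with 51.5% of them negative.

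Hoxb2, a gene that patterns the hindbrain, was at 8.22, 6.21 and 6.67 CPM in KO females, against 8.17 and 8.87 CPM in WT females. KO males had 3.87, 5.06 and 5.36 CPM, against 8.69, 6.81 and 7.85 CPM in WT males. Every KO male was below every WT library, and KO female 1 was among the WT values. The log2 fold change over both sexes was −0.52 (SE 0.13, edgeR adjusted p = 0.173), with −0.58 and an edgeR adjusted p of 0.0396 without WT female 1, when 7.06% of all entries were called.

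Within males, A and B genes lay lower in KO and C and D genes, apart from Hoxc13, lay higher, of which Hoxd8 alone passed. All 15 A and B genes had a negative log2 fold change in KO males against WT males, from −0.86 to −0.22 with a median of −0.54. Of the 7 C and D genes that could be tested, 6 had a positive one. Among these, Hoxd4 passed the filter through its 11 and 20 counts in KO males 2 and 3, with at most 5 counts in any other library. Its direction in males was thus set by the filter. The median over all 22960 entries tested was −0.02. By edgeR 1 of 22 genes was called, Hoxd8, where 1.22% of all entries were called and 0.719% were called as higher. In 9 genes, Hoxa4, Hoxa5, Hoxa6, Hoxa7, Hoxb2, Hoxb5, Hoxb6 and Hoxb8 among them, every KO male was below every WT male, against 13.9% of all entries. Hoxc4 and Hoxd8 had every KO male above every WT male, against 16.9% of all entries.

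Hoxa5 was at 15.5, 15.6 and 20.2 CPM in KO males, against 31.9, 24.1 and 22.6 CPM in WT males. It was at 30.5, 21.2 and 25.6 CPM in KO females, against 22.7 and 17.9 CPM in WT females. The male groups did not overlap, while the female groups did. In males its log2 fold change was −0.61 (SE 0.18, edgeR adjusted p = 0.0905) and in females 0.34 (SE 0.20, edgeR adjusted p = 0.671).

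Hoxb5, whose product acts in airway branching, was at 3.51, 5.14 and 5.75 CPM in KO males, against 8.86, 6.73 and 9.25 CPM in WT males. KO females had 8.17, 7.35 and 7.52 CPM, against 7.33 and 5.19 CPM in WT females. KO thus lay below WT in males and above WT in females without overlap in either, as for Hoxb6. The log2 fold change of Hoxb5 was −0.78 in males (SE 0.20, edgeR adjusted p = 0.0646) and 0.30 in females (SE 0.23, edgeR adjusted p = 0.683). The test of that difference gave −1.08 (SE 0.31, edgeR adjusted p = 0.307).

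Hoxb6 stood at 4.12, 4.99 and 6.32 CPM in KO males, against 7.64, 6.97 and 7.87 CPM in WT males. Its levels were 7.27, 8.35 and 7.92 CPM in KO females, against 6.80 and 5.44 CPM in WT females. Its difference of effects was −0.90 (SE 0.24, edgeR adjusted p = 0.307).

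Hoxa3 and Hoxa4 were lower in KO males by 0.52 (SE 0.16, edgeR adjusted p = 0.0999) and 0.86 (SE 0.26, edgeR adjusted p = 0.0941) on the log2 scale, without passing. Hoxa4, the neighbour of Hoxa5 in the cluster, was at 1.85, 1.88 and 2.54 CPM in KO males, against 5.34, 2.94 and 3.13 CPM in WT males. It was at 4.19, 2.62 and 3.23 CPM in KO females, against 2.84 and 2.48 CPM in WT females. Hoxa3 was at 9.92, 11.8 and 15.0 CPM in KO males, against 20.8, 15.0 and 17.0 CPM in WT males, where KO male 3 just passed the lowest WT male. In females Hoxa3 was at 15.6, 14.5 and 16.9 CPM in KO, against 15.6 and 16.1 CPM in WT. Hoxa7, the last well-read gene of cluster A, was at 3.47, 4.15 and 4.16 CPM in KO males, against 6.38, 5.43 and 4.43 CPM in WT males (log2 fold change −0.46, SE 0.18, edgeR adjusted p = 0.163). It was at 6.00, 6.11 and 5.39 CPM in KO females, against 5.80 and 3.96 CPM in WT females.

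Hoxb4 had the smallest log2 fold change of the A and B genes in males (−0.22, SE 0.14, edgeR adjusted p = 0.380). It was at 11.1, 10.9 and 12.8 CPM in KO males, against 12.1, 13.2 and 15.3 CPM in WT males. It was at 12, 12.4 and 14.6 CPM in KO females, against 13.3 and 16.7 CPM in WT females, with a log2 fold change of −0.21 over both sexes (SE 0.10, edgeR adjusted p = 0.292). Hoxb9, the last gene of cluster B before Hoxb13, varied most among the A and B genes past the filter, by 4.45 times between the lowest and the highest library. It was at 4.12, 6.48 and 4.0 CPM in KO females, against 6.02 and 1.65 CPM in WT females. In males it was at 2.42, 2.78 and 3.90 CPM in KO, against 7.35, 3.22 and 1.91 CPM in WT. WT female 2 and WT male 3 were the lowest libraries. Hoxb8 was likewise low in WT female 2, at 4.53 CPM against 10.9 CPM in WT female 1, and had 9.80, 11.6 and 8.84 CPM in KO females. In males Hoxb8 was at 4.94, 5.70 and 7.31 CPM in KO, against 8.69, 7.70 and 7.74 CPM in WT.

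**Figure D2:**
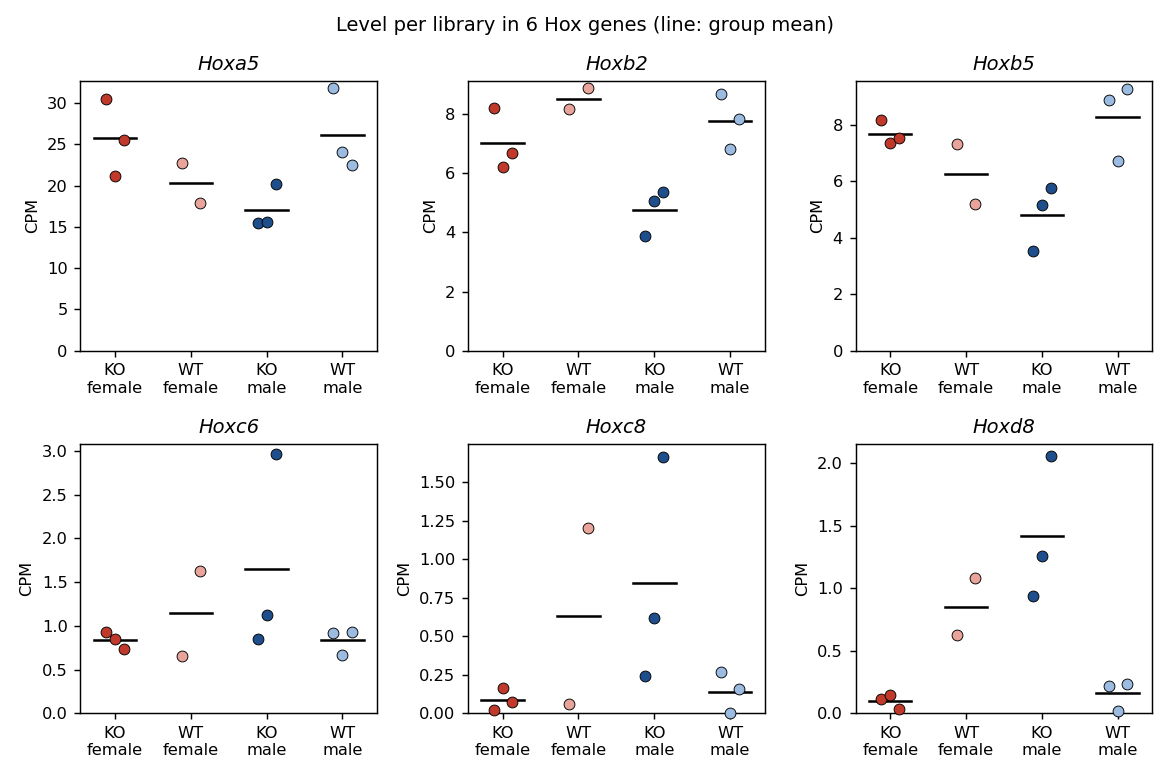
CPM of 6 Hox genes in each library (points) by genotype and sex, with the group mean as a line, on axes that start at 0. KO males have the lowest group mean for Hoxa5, Hoxb2 and Hoxb5, while Hoxd8 is highest in KO males and WT females and near 0 in KO females and WT males.

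The lower A and B levels of KO males lay mostly in KO males 1 and 2. The 17 A and B genes of groups 1 to 9 summed to 77.1, 86.7 and 107 CPM in KO males, against 145, 117 and 125 CPM in WT males. They summed to 132, 121 and 126 CPM in KO females, against 124 and 106 CPM in WT females. KO males 1 and 2 had the 2 lowest of these sums among all 11 libraries. The same libraries were highest in leukocyte and macrophage markers, of which Adgre1, Cd68 and Laptm5 rose in KO males by edgeR and 14 of 14 past the filter had a positive log2 fold change in males. The mean log2 CPM of the 14 such markers past the filter was 9.02, 8.90 and 8.36 in KO males, against 7.91, 8.25 and 7.72 in WT males. It was 8.43, 8.56 and 8.38 in KO females, against 8.39 and 7.58 in WT females. WT female 2 had both the lowest score and the lowest A and B sum of the WT libraries. With a term for that score, added once the data had been seen, 0 of 22 Hox genes and 0% of all entries were called in males. The score did not overlap between KO and WT males, so this term and genotype cannot be well separated in males. With the term, 14 of the 15 A and B genes had a negative log2 fold change there, with a median of −0.55 and −0.55 for Hoxa5. Hoxd8 was at 4.34 (SE 0.61, edgeR adjusted p = 0.288). Over both sexes the log2 fold changes with this term were 0.034 for Hoxa3, 0.027 for Hoxa5, 0.010 for Hoxb5 and 0.11 for Hoxb6.

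Markers of several other cell types also differed between the male groups. The 8 pericyte and smooth muscle genes summed to 165, 216 and 253 CPM in KO males, against 558, 325 and 559 CPM in WT males, and Cnn1, Myh11 and Mcam fell in KO males by edgeR. In females they summed to 371, 267 and 292 CPM in KO, against 279 and 241 CPM in WT. Epithelial markers summed to 8.74 to 9.91 CPM in KO males, against 17.3 to 36.8 CPM in WT males, and 0 of the 6 past the filter had a positive log2 fold change (median −1.58). Lung mesenchyme markers summed to 35.4 to 37.0 CPM in KO males, against 48.6 to 67.0 CPM in WT males, with 1 of 6 positive (median −0.72). For the mesothelial list 0 of 6 were positive in males (median −1.50) and for the endothelial list 2 of 8 (median −1.47). The summed levels of both overlapped between the groups. The endothelial sum averaged higher in KO males, at 83.3 CPM against 61.9 CPM in WT males, so its negative median does not describe the summed level. Vwf averaged 51.03 CPM in KO males and 21.86 CPM in WT males, without overlap. Kdr averaged 25.5 and 17.9 CPM, while Egfl7 went the other way, at 1.47 and 2.80 CPM. Of the 10 fibroblast markers, 5 were positive in males (median −0.03). In females 7 of 8 pericyte and smooth muscle, 3 of 6 epithelial, 5 of 6 lung mesenchyme, 6 of 6 mesothelial and 7 of 8 endothelial genes were positive. The part of these cell types in the lower A and B levels was not tested. That of leukocytes could not be well separated from genotype in males by the term described above.

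**Figure D3:**
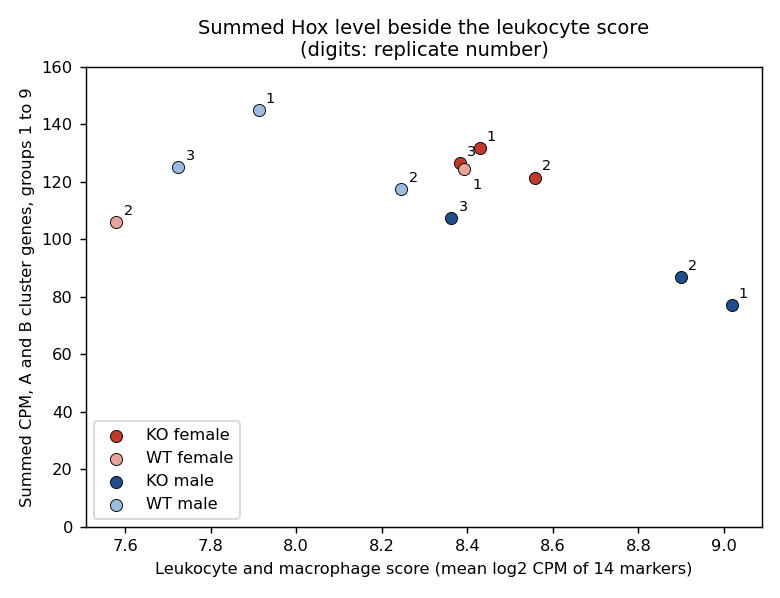
Summed CPM of the 17 A and B cluster genes of groups 1 to 9 (vertical, from 0) against the leukocyte and macrophage score (horizontal, mean log2 CPM of 14 markers) in each library. KO males 1 and 2 lie at the lower right with 77.1 and 86.7 CPM at scores of 9.02 and 8.90.

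Which A and B genes were called in males depended on the setting. DESeq2 called 8 of the Hox genes in males, where it called 5.31% of all entries with a count. Among these were Hoxd8 as higher and Hoxa3, Hoxa4, Hoxa5, Hoxb2, Hoxb5 and Hoxb6 as lower in KO. Without KO male 3, edgeR called Hoxd8 and 5 lower genes (Hoxa3, Hoxb2, Hoxb3, Hoxb5 and Hoxb6), beside 4.84% of all entries. Without WT female 1, WT female 2 or WT male 2 it called 4 Hox genes, with Hoxd8, Hoxb2 and Hoxb5 among them each time, beside 7.84%, 8.87% and 4.19% of all entries. Without KO male 3, WT female 2 and WT male 3 together it called 8 Hox genes beside 8.39% of all entries, Hoxd8 as higher and Hoxa3, Hoxa5, Hoxa7, Hoxb3, Hoxb5, Hoxb6 and Hoxb8 as lower. With no filter on low counts it called 3 beside 2.82%, with relative log expression scaling 0 beside 0.0348%, and with a block on the replicate number 0 beside 0%.

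Hoxd8, which acts in the trunk, was the only Hox gene that edgeR called with all libraries, the low-count filter, TMM scaling and no added term, and its fitted direction differed between the sexes. It was read with 42, 57 and 101 counts in KO males, against 9, 1 and 9 counts in WT males, which is 0.934, 1.26 and 2.05 CPM against 0.218, 0.0216 and 0.239 CPM. Every KO male lay above every WT male. The log2 fold change was 3.18 (SE 0.56, edgeR adjusted p = 0.0478), and Hoxd8 rose in KO males by this test. In KO females it was read with 5, 7 and 1 counts, against 20 and 43 counts in WT females, which is 0.113, 0.145 and 0.0367 CPM against 0.624 and 1.08 CPM. Every KO female lay below both WT females. The log2 fold change in females was −2.97 (SE 0.66, edgeR adjusted p = 0.671), and over both sexes it was 0.54 (SE 0.99, edgeR adjusted p = 0.810).

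The male call for Hoxd8 lay close to the threshold. Its edgeR adjusted p was 0.0623, 0.0780 and 0.0885 without KO female 1, 2 or 3, 0.206 and 0.196 without KO male 1 or 2, and 0.140 and 0.145 without WT male 1 or 3. It stayed below 0.05 without KO male 3 (0.0331), WT female 1 (0.030), WT female 2 (0.0279) or WT male 2 (0.0301). The fold change stayed between 2.60 and 3.58 on the log2 scale in all 11 of these fits. In females the gene passed without WT female 1 (log2 fold change −3.30, edgeR adjusted p = 0.0192), as did Hoxb8 (1.16, edgeR adjusted p = 0.0157), beside 15.3% of all entries. That fit left 1 WT female, assumed to vary like the other groups.

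The difference between the male and the female effect was largest for Hoxd8 among the genes with counts in every group. It was 6.15 on the log2 scale (SE 0.87, unadjusted p = 2.46e-05 and edgeR adjusted p = 0.307 from the fit across all genes). By edgeR, 0 of 22 Hox genes were called for this difference, where 0% of all entries were called. At an unadjusted p under 0.05 there were 11 of 22, against 12.9% of all entries. Hoxd4, past the filter through KO males 2 and 3 alone, was among them. DESeq2 called Hoxd8 alone (adjusted p = 5.05e-07), where it called 0.574% of all entries with a count. Without the filter on low counts edgeR called it as well (adjusted p = 0.0175), beside 0.00522% of all entries. Without WT female 1, edgeR called 9 Hox genes beside 10.1% of all entries, with Hoxc4, Hoxc8 and Hoxd8 higher and Hoxa5, Hoxa6, Hoxa7, Hoxb5, Hoxb6 and Hoxb8 lower in the male than in the female effect.

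Hoxd3, Hoxd4 and Hoxd9 were read at far lower counts than Hoxd8, and Hoxd1 at none. Hoxd4 had 1, 11 and 20 counts in KO males, against 1, 0 and 0 counts in WT males. It had 0 counts in all 3 KO females, against 1 and 5 counts in WT females. Hoxd9 had 10, 5 and 16 counts in KO males, against 0, 0 and 3 counts in WT males, and 3, 1 and 0 counts in KO females, against 2 and 5 counts in WT females. Hoxd3 had 1, 3 and 3 counts in KO males, 1 and 2 counts in WT females and none in the other libraries. Hoxd3 and Hoxd9 did not pass the low-count filter in either model. Hoxd4 passed it in the model by sex only, through KO males 2 and 3 alone, so the group rests on Hoxd8.

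In cluster C, KO male 3 and WT female 2 stood out. Hoxc4 was at 1.74, 1.85 and 3.31 CPM in KO males, against 1.5, 1.45 and 1.43 CPM in WT males, and Hoxc6 was at 0.845, 1.13 and 2.97 CPM, against 0.922, 0.671 and 0.928 CPM. In females Hoxc4 was at 1.61, 1.29 and 1.32 CPM in KO, against 1.22 and 2.58 CPM in WT. Hoxc6 in females was at 0.928, 0.852 and 0.733 CPM in KO, against 0.655 and 1.63 CPM in WT. Hoxc8, which acts in the thoracic skeleton, had 11, 28 and 82 counts in KO males, against 11, 0 and 6 counts in WT males. It had 1, 8 and 2 counts in KO females, against 2 and 48 counts in WT females. KO male 3 was the highest of all libraries for 8 of the 9 C and D genes of groups 3 to 9 that had a count, Hoxd3 being the exception. WT female 2 was the higher WT female for each of Hoxc4, Hoxc5, Hoxc6, Hoxc8 and Hoxc9. In this library the muscle actin Acta1 was at 54.3 CPM, against 4.38 to 13.5 CPM in the KO libraries and 8.37 to 23.7 CPM in the other WT libraries. Tnnt3, a skeletal muscle troponin, was also highest there (1.25 CPM, against 0.223 to 0.477 CPM in KO and 0.267 to 0.424 CPM in the other WT libraries). Another, Tnni2, was lowest there, at 0.777 CPM, and Ckm was at 0.0501 CPM, within the range of the other libraries. The 7 skeletal muscle genes summed to 56.4 CPM there. Their sum was 6.52 to 14.9 CPM in KO and 9.91 to 25.9 CPM in the other WT libraries. Their part in the cluster C levels was not tested.

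None of the C genes passed in KO males against WT males. The log2 fold changes were 0.66 for Hoxc4 (SE 0.30, edgeR adjusted p = 0.236), 0.98 for Hoxc6 (SE 0.46, edgeR adjusted p = 0.244) and 2.60 for Hoxc8 (SE 1.07, edgeR adjusted p = 0.187). Over both sexes they were 0.17, 0.35 and 0.31, and without KO male 3 they turned to −0.08, −0.12 and −0.52. Hoxc13, known from hair and nails, had 11, 4 and 0 counts in KO females and 2, 1 and 0 in KO males, against 1 and 14 in WT females and 15, 1 and 2 in WT males. Its 51 counts came mostly from KO female 1, WT female 2 and WT male 1.

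**Figure D4:**
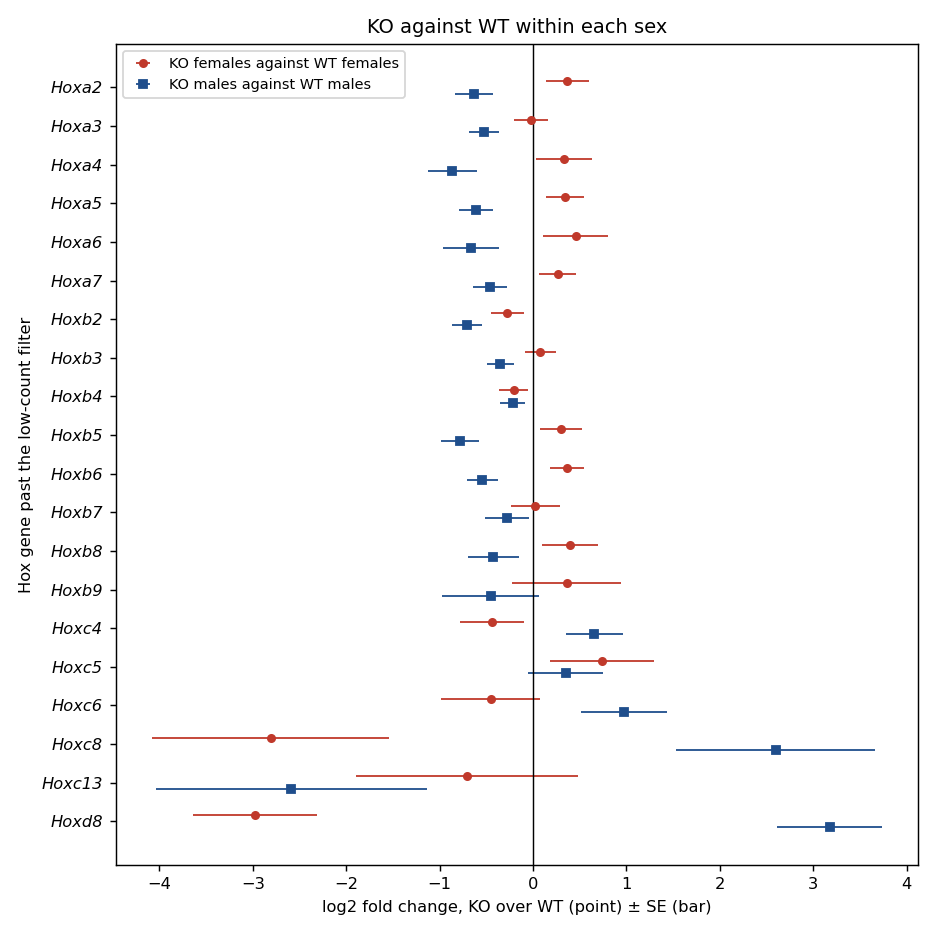
Log2 fold change of KO over WT (point) with its SE (bar) for 20 Hox genes past the filter in both models, in females (red circles) and in males (blue squares). A and B genes lie left of 0 in males and mostly right of it in females, while Hoxd8 reaches 3.18 in males and −2.97 in females.

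In females alone, 0 of 22 Hox genes were called by edgeR, where 0.00436% of all entries were called. DESeq2 called 0 Hox genes, where it called 0.0157% of all entries with a count. At an unadjusted p under 0.05 there was 1 of 22, Hoxd8, against 6.63% of all entries. Of the 15 A and B genes, 11 had a positive log2 fold change and 4 a negative one (median 0.30, beside 0.03 over all entries). Hoxd4 and Hoxd8 had every KO female below both WT females, against 8.46% of all entries. For Hoxd4 this was 0 counts in every KO female against 1 and 5 counts in WT females, too few to tell apart. Hoxa2, Hoxb5, Hoxb6 and Hoxc5 had every KO female above both, against 11.2%.

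Genes of groups 10 to 13, which mark the pelvis, hind limb and digits, were close to absent except in WT male 3. Their 12 genes summed to 0 to 14 counts per KO library, and to 144 counts in WT male 3 and 3 to 20 counts per library in the other 4 WT libraries. This library was singled out after its values were seen. It had 36 counts of Hoxa10 (exact 95% Poisson interval 25.2 to 49.8), 21 of Hoxa11 (13 to 32.1) and 17 of Hoxa13 (9.90 to 27.2). From cluster D it had 4 counts of Hoxd10, 8 of Hoxd11, 10 of Hoxd12 and 32 of Hoxd13 (21.9 to 45.2), and from cluster C 11 of Hoxc11 (5.49 to 19.7). The intervals cover counting error only. In the 10 other libraries together, Hoxa10 had 15 counts and Hoxa11, Hoxa13, Hoxc11, Hoxd10, Hoxd11, Hoxd12 and Hoxd13 had 0.

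Hoxa13 and Hoxd13, the genes of the hand, foot and urogenital tract, were therefore read at 0.451 and 0.848 CPM in 1 WT male and in no KO library. No fold change is given for them, because a single library carries the counts. Of all 58223 entries, 6 had at least 10 counts in 1 library and 0 in the other 10. This rule was set after the values had been seen, so it describes them and tests nothing. In WT male 3 there were 5 of these, and all 5 were Hox genes (Hoxa11, Hoxa13, Hoxc11, Hoxd12 and Hoxd13). The sixth lay in KO male 1 and was not a Hox gene. The noncoding neighbour Hoxa11os was likewise read in WT male 3 alone, at 0.239 CPM.

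Other genes of position and cell type that were highest in WT male 3 were read beside these. Tbx15, of skin and limb mesenchyme, was at 8.01 CPM there and 1.74 to 5.06 CPM in the other libraries. The 6 mesothelial markers summed to 190 CPM, against 12.7 to 124 CPM in the KO libraries and 22.9 to 106 CPM in the other WT libraries. The hind limb gene Pitx1 was at 0.0265 CPM, within the 0 to 0.104 CPM of the other libraries. The lung mesenchyme genes were at 17.1 CPM for Tbx4 and 28.8 CPM for Foxf1 in this library, at or near the top of the 11. Their part in the counts of groups 10 to 13 was not tested. WT male 3 did not stand apart in the A and B genes, which summed to 125 CPM.

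**Figure D5:**
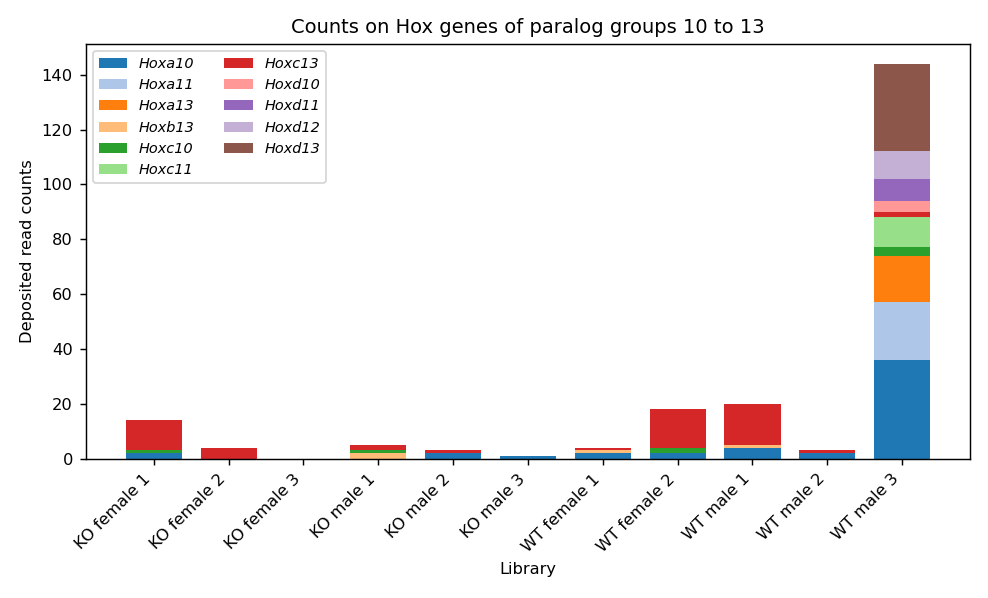
Deposited read counts on the Hox genes of paralog groups 10 to 13 in each library, stacked by gene from 0, with KO libraries left of WT libraries. WT male 3 reaches 144 counts from 10 genes, and no other library exceeds 20.

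No Hox gene passed between males and females. Adjusted for genotype, 0 of 21 were called by edgeR, where 4.82% of all entries were called, and 2 of 21 had an unadjusted p under 0.05, against 27.8% of all entries. DESeq2 called Hoxc5 alone, where it called 7.24% of all entries with a count. With the leukocyte term edgeR called Hoxc5, beside 2.41% of all entries. Without KO male 3, WT female 2 and WT male 3 it called Hoxb8 as lower in males, beside 5.38%. Hoxc5 was at 0.578, 0.662 and 1.42 CPM in KO males and 0.995, 0.498 and 0.610 CPM in WT males, against 0.611, 0.353 and 0.403 CPM in KO females and 0.187 and 0.351 CPM in WT females. Its log2 fold change of males over females was 1.10 (SE 0.32, edgeR adjusted p = 0.0641). Hoxb2 was lower in males by this fit (−0.37, SE 0.13, edgeR adjusted p = 0.106). Female and male libraries carry differently styled names, so sex and a preparation difference cannot be told apart.

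None of the genes that act with or upon Hox genes passed over both sexes, where 0.00448% of all entries were called (Cgas alone). The absence of calls is therefore no trait of these genes. Lists were chosen for their known roles, with earlier results of these data known. Of the 9 cofactors that bind DNA together with Hox proteins, 4 had a positive and 5 a negative log2 fold change (median −0.04). The lowest p was that of Pbx4 (−0.48, SE 0.30, edgeR adjusted p = 0.421). Among 29 chromatin regulators of the Polycomb and Trithorax type, 10 were positive and 19 negative (median −0.03). Pcgf6, a Polycomb subunit, averaged 4.74 ± 0.231 CPM over the 6 KO libraries, against 6.01 ± 0.437 CPM over the 5 WT libraries (SD here and for the genes that follow), without overlap (log2 fold change −0.34, SE 0.09, edgeR adjusted p = 0.173). Men1, a cofactor of the activating histone methyltransferase Kmt2a, was at 38.6 ± 1.83 CPM in KO and 33.6 ± 3.93 CPM in WT (0.20, SE 0.08, edgeR adjusted p = 0.257).

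Of the 16 retinoid and axial signal genes, 10 passed the filter, 2 positive and 8 negative (median −0.10). Retinoic acid is known to switch on low-numbered Hox genes in embryos. Cyp26b1, which breaks retinoic acid down, ranged from 3.15 to 20.9 CPM in KO and from 16.9 to 77.8 CPM in WT. WT female 2 was the highest library and KO male 3 the lowest. The log2 fold change was −1.71 (SE 0.38, edgeR adjusted p = 0.173). Rarb, a retinoic acid receptor, was at 2.74 to 5.5 CPM in KO and 4.15 to 13.6 CPM in WT (−0.84, SE 0.23, edgeR adjusted p = 0.173), again highest in WT female 2. Its partner receptor Rxra was at 142 ± 12.3 CPM in KO and 113 ± 14.9 CPM in WT (0.33, SE 0.10, edgeR adjusted p = 0.175). The axial regulators Cdx2 and Cdx4 had 0 counts in every library.

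Noncoding RNAs of the clusters were mostly lower in KO without passing. Of the 16 that the files hold, 5 passed the filter, and all 5 had a negative log2 fold change over both sexes (median −0.31) and in males (median −0.50). In females 2 of the 5 were positive (median −0.09), where 11 of the 15 A and B genes were positive. Hoxaas2 was at 3.79 ± 0.910 CPM in KO and 5.26 ± 1.49 CPM in WT (−0.53, SE 0.15, edgeR adjusted p = 0.173). Hoxb3os was at 12 ± 2.11 CPM in KO and 14.6 ± 1.07 CPM in WT (−0.31, SE 0.12, edgeR adjusted p = 0.216), and Hotairm1 at 1.55 ± 0.248 CPM in KO and 2.00 ± 0.382 CPM in WT (−0.39, SE 0.16, edgeR adjusted p = 0.239). Each of these lies opposite an exon of a Hox gene, and without strand their reads cannot be told apart. Hottip, at the far end of cluster A, had 0 counts in every library. Of the 10 protein-coding neighbours outside the clusters that passed the filter, 6 were positive. Among them were Skap2 (0.31, SE 0.09, edgeR adjusted p = 0.173) and Snx10 (0.33, SE 0.10, edgeR adjusted p = 0.176), both near cluster A. Both were highest in KO males 1 and 2, the libraries with the highest leukocyte scores. Skap2 was at 94.5 and 94.9 CPM there, and Snx10 at 55.0 and 49.2 CPM. The part of leukocytes in these levels was not tested.

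Of 32 other homeobox, T-box and forkhead genes that mark position, 25 passed the filter, 9 positive and 16 negative (median −0.13). Foxf1, a regulator of lung mesenchyme, was at 25.9, 23.5 and 23.8 CPM in KO females, against 25.9 and 32.3 CPM in WT females. It was at 15.3, 15.1 and 15.4 CPM in KO males, against 24.2, 20.7 and 28.8 CPM in WT males. The male groups did not overlap, and in males Foxf1 fell (log2 fold change −0.69, SE 0.13, edgeR adjusted p = 0.0478). It was the only gene of these 6 lists called there, where 1.22% of all entries were called. Without KO female 1, 2 or 3, KO male 1 or 2, or WT male 1 or 3 it did not pass (edgeR adjusted p = 0.0623 to 0.206), and with the leukocyte score as a covariate its log2 fold change was −0.38 (edgeR adjusted p = 0.582). Over both sexes its log2 fold change was −0.50 (SE 0.11, edgeR adjusted p = 0.173). Tbx4 and Tbx5, the T-box genes of lung mesenchyme, were at 8.76 ± 5.06 and 12.7 ± 2.55 CPM in KO and 10.3 ± 5.5 and 12.8 ± 1.91 CPM in WT. Foxf1, Tbx4, Tbx5 and the 15 A and B Hox genes past the filter were read in every library.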

How the data were processed

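RNA was sequenced from primary lung fibroblast cultures in 6 cGAS KO and 5 WT samples. The authors deposited whole-number counts per gene and repeat subfamily, 1 table per library, with no normalization. Trim Galore, STAR and the GRCm39 build are named, without versions, in the submitters' processing notes; the counting program, its strand setting, its handling of reads with several matches and its annotation are not given in the sources used here. Female and male libraries are named in different styles in the labels.

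From the deposited counts, CPM were computed here on TMM-scaled library sizes (factors 0.963 to 1.03), and differences were tested with edgeR 4.0.16 in R 4.3.3 (quasi-likelihood F-test, filterByExpr with a minimum count of 10). The contrasts over both sexes and of males with females used sex and genotype as terms (8 residual degrees of freedom). The contrasts within each sex and their difference used 1 mean for each sex of each genotype (7 residual degrees of freedom). The Benjamini-Hochberg procedure was run across every tested entry of a contrast, and an adjusted p under 0.05 was a call. Fold changes are KO over WT unless stated, SD belongs to CPM and SE to fitted log2 fold changes. DESeq2 1.42.0 was an alternative. Other alternatives were relative log expression scaling, no low-count filter, scaling without repeats, a block on the replicate number and leaving out each library. The scripts were tested on simulated counts.

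Symbols were taken from GENCODE vM21 (GRCm38), which named 52073 of 56980 gene IDs, and the same annotation gave exon lengths, overlaps and coding sequence. Promoter sequences are from RefSeq on GRCm38.p6. Depth was 27261958 to 48039328 counts per library. A count of 0 allows up to 3 counts, and such floors and Poisson intervals cover counting error only. Replicates of a group differed beyond sampling noise (chi-square per degree of freedom 12.0 to 144 where both libraries together had 20 counts or more).

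The members, the lists of related and marker genes and the tests were chosen with earlier results of these data known. Values in every library were given for the 2 most abundant members per kilobase of each cluster, the highest paralog number past the filter in each cluster, and the 4 highest and 4 lowest log2 fold changes over both sexes among members of at least 1 CPM. They were also given for the 3 smallest p in every other contrast and for any called member. From each list of related genes up to 3 with the smallest p were named. WT male 3, its Hox genes of groups 10 to 13, Hoxa2, Hoxa6, Hoxb3, Hoxd3 and the marker genes were described outside this rule, after their values were seen. Some items are not reported here.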

Additional observations from a re-analysis of the deposited data

Results flagged for a closer look

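Among groups of 5 WT or 6 KO libraries with spread, 59 sets were examined for a library far from the rest of its genotype. By Dixon's criterion at 95%, 20 held such a library. The nominal rate of 1 in 20 is for independent, normally distributed values. Many sets here hold counts near 0 or genes of the same cluster, so 20 of 59 cannot be set against that rate. For Hoxa11, Hoxa13, Hoxc11 and Hoxd10 to Hoxd13, every WT library but WT male 3 was at 0, so any count was flagged. The libraries concerned were KO male 3 in 5 sets, KO male 1 and KO female 1 in 1 each, WT male 3 in 8, WT female 2 in 4 and WT male 1 in 1.

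KO male 3 stood above the other KO libraries in Hoxc4 (3.31 CPM), Hoxc5 (1.42 CPM), Hoxc6 (2.97 CPM), Hoxc8 (1.67 CPM) and the summed level of cluster C (9.97 CPM). KO male 1 was apart in Hoxb13 (0.0445 CPM, from 2 counts) and KO female 1 in Hoxc13 (0.249 CPM).

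WT male 3 stood above the other WT libraries in genes of groups 10 to 13: Hoxa10 (0.955 CPM), Hoxa11 (0.557 CPM), Hoxa13 (0.451 CPM), Hoxc11 (0.292 CPM), Hoxd10 (0.106 CPM), Hoxd11 (0.212 CPM), Hoxd12 (0.265 CPM) and Hoxd13 (0.848 CPM). WT female 2 was apart in Hoxc4 (2.58 CPM), Hoxc6 (1.63 CPM), Hoxc8 (1.20 CPM) and Hoxd4 (0.125 CPM), and WT male 1 in Hoxa4 (5.34 CPM).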

How the results depend on the processing

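The median log2 fold change over the Hox genes past the filter stayed negative in males and for the difference between the sexes under every alternative run. Over both sexes it was −0.16 and became 0.05 with the leukocyte score; for males against females it became 0.21 with DESeq2 and 0.22 without the low-count filter, where more genes had values. The number of Hox genes called over both sexes was 2 with DESeq2 and 0 to 2 without 1 library. In males it was 0 with relative log expression scaling (Hoxd8 log2 fold change 3.17, edgeR adjusted p = 0.0508), 8 with DESeq2, 3 without the low-count filter and 0 to 6 without 1 library. In females it was 0 to 2, for the difference between the sexes 1 with DESeq2, 1 without the filter and 0 to 9 without 1 library, and for males against females 1 with DESeq2 and 0 to 1 without 1 library. The highest counts in females and for the difference between the sexes came without WT female 1, which left WT female 2 as the only WT female. The next alternatives were added after seeing the data. The leukocyte score as a covariate gave 0 in males and 1 for males against females, and turned Hoxa3 (0.034), Hoxa4 (0.059), Hoxa5 (0.027), Hoxb4 (0.021), Hoxb5 (0.010), Hoxb6 (0.11) and Hoxc13 (0.25) positive over both sexes. Leaving out KO male 3, WT female 2 and WT male 3 gave 8 in males and 1 for males against females.

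Without 1 library, log2 fold changes over both sexes ran from −0.31 to 0.044 for Hoxb8, −0.39 to 0.29 for Hoxb9, −0.081 to 0.53 for Hoxc4, −0.12 to 0.82 for Hoxc6, −0.52 to 2.39 for Hoxc8 and −0.14 to 1.49 for Hoxd8. Replicate numbers did not pair the samples: the departures of log2 CPM from the group mean had correlations of −0.134 to 0.0758 between same-numbered and −0.226 to 0.174 between other KO and WT libraries of a sex. With the replicate block, 0 Hox genes were called in males (Hoxd8 3.19, edgeR adjusted p = 0.132), Hoxb9 over both sexes was 0.10, and Cgas was −1.95 (edgeR adjusted p = 0.0630). The block could not be fitted for males against females, since it lies within sex. Cgas also missed the threshold with the leukocyte score (−1.96, edgeR adjusted p = 0.237). The causes of these changes were not tested. Depth limits the D genes and groups 10 to 13, where 1 to 3 counts set the levels of single libraries.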
